A study of Mus musculus with 8 samples.

Results

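Of 101701 open regions found in at least 1 of 4 cell populations, 3764 (3.70%) were open in mouse embryonic fibroblasts (MEFs), still open at day 5 and day 10 of reprogramming, and without a peak in embryonic stem cells (ESCs). These kept regions were chosen by merging peaks that lay within 400 bp of each other across the 4 deposited peak lists and taking the merged regions with a peak in the MEF, day 5 and day 10 lists and none in the ESC list. MEFs had 36994 regions without an ESC peak, and the kept regions were 10.2% of them. Another 29998 had a peak in MEFs alone (MEF-only), 1507 in MEFs and at day 5 (MEF and day 5) and 1725 in MEFs and at day 10 (MEF and day 10). Because the peaks themselves chose the members, these counts are a description and carry no test.

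The assay was ATAC-seq, whose transposase cuts accessible DNA and tags the ends for sequencing, applied to 8 libraries, 2 per group. The groups were uninfected wild-type MEFs at day 0, cells at day 5 (OSKMD5) and day 10 (OSKMD10) after retroviral delivery of OCT4 (encoded by Pou5f1), SOX2, KLF4 and MYC (together OSKM), and wild-type ESCs. The cells of both OSKM groups were wild-type, received a FLAG control vector as well, and grew in an ESC medium supplemented with vitamin C. MEFs, both OSKM groups and ESC #2 were labelled C57BL/6J-OG2, a strain whose Oct4-GFP transgene is driven by Pou5f1 sequence, and ESC #1 was labelled C57Bl6J. A culture at day 5 or day 10 is a mixture of cells at different stages, including cells that never leave the fibroblast state. In such a bulk population, fewer cells with an open site and a less open site in every cell cannot be told apart. Each group had 1 peak list made from both libraries, so there was no replicate check, and every interval below is a 95% interval that covers counting error over regions only. The lists do not state how many reads lay behind them, so depth is unknown. Of 6 fibroblast marker genes (Col1a1, Col1a2, Prrx1, Twist2, Thy1 and Pdgfrb), all had a peak within 5 kb of a start site in the MEF list, and of 5 ESC markers (Nanog, Esrrb, Dppa4, Tfcp2l1 and Zfp42), all had one in the ESC list. Presence of a peak separated the groups only in part. Col1a1, Col1a2, Prrx1 and Twist2 had a peak in the ESC list too, and Nanog, Esrrb and Tfcp2l1 had one in the MEF list, while Thy1 and Pdgfrb had none in ESCs and Dppa4 and Zfp42 none in the other 3 lists. No kept region touched an exon of Pou5f1, Sox2, Klf4 or Myc, the genes delivered by retrovirus.

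Fibroblast identity is held in place by enhancers and promoters that are opened by transcription factors such as AP-1 (FOS and JUN dimers), TEAD and RUNX proteins. During reprogramming many of these elements close, while OCT4, SOX2 and KLF4 bind new elements and, for a time, some that were already open. KLF and SP proteins share GC-rich binding sequences that are common in promoters, and SOX proteins bind a short sequence that occurs widely in enhancers.

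The sequences below show the letters that the counts of motif matches rest on. They are the strongest kept regions with a match among those whose window had at most 10% repeat-masked bases, so that stronger AP-1 regions with more repeats, at Usp6nl and Flrt2, are described but not printed. Strength was the lowest of a region's 3 score percentiles. A score percentile was the percentage of peaks of a list whose −log10 q-value the region's best peak reached or exceeded. Each line holds the 200 bp around the midpoint of the MEF peak on the plus strand of mm10 (GRCm38), 5′ to 3′, with the match in capitals.

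Shown first are 3 kept regions over 5 kb from any start site (distal) with the AP-1 site, TGACTCA or its reverse complement. The first lies between genes, 659131 bp from a start site of Zeb2, the nearest coding gene. The second lies 10034 bp from a start site of Capn2, and the third lies in an intron of Bach2, a repressor related to AP-1. The first and the second hold 2 AP-1 sites each.
chr2:45777153-45777352: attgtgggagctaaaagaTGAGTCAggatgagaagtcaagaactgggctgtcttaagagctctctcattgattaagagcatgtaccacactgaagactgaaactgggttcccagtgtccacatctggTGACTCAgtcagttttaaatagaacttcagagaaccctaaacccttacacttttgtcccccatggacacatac
chr1:182528078-182528277: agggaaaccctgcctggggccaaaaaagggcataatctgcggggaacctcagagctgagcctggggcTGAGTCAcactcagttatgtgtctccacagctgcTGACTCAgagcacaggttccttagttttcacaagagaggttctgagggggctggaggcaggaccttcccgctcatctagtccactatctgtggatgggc
chr4:32405664-32405863: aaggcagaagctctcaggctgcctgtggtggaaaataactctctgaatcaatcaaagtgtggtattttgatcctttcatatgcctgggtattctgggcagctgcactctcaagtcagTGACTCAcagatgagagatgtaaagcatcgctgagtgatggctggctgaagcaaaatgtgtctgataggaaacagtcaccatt

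Next are 3 distal kept regions with a KLF match (CCACACCC and CCACGCCC, or CCCCACCC and CCCCGCCC, on either strand). Their nearest coding genes are Ankrd1, Klf3 and Cep162, with start sites 87302, 222983 and 208214 bp away.
chr19:36207898-36208097: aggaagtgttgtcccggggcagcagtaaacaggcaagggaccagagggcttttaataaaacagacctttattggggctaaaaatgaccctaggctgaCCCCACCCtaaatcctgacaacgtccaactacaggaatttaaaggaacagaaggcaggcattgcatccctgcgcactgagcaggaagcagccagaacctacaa
chr5:64579884-64580083: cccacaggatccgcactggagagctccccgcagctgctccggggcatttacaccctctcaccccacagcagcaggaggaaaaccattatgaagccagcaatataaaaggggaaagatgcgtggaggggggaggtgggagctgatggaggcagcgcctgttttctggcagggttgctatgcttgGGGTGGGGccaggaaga
chr9:87464289-87464488: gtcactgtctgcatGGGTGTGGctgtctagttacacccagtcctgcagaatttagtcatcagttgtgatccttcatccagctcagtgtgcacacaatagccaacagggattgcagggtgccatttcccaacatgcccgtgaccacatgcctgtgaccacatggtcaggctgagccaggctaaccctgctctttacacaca

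Last are 2 kept regions that contain a start site and a KLF match, at Mindy4 and at Miip.
chr6:55203530-55203729: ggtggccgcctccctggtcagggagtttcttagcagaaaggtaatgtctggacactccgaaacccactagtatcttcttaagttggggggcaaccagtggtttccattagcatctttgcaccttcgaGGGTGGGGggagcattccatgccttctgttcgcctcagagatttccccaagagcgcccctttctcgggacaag
chr4:147868542-147868741: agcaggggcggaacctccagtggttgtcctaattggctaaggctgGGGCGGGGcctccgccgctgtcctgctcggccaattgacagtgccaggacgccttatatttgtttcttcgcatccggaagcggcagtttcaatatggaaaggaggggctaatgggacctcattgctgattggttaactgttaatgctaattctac

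The peaks of the kept regions were of middling strength in each list. Their score percentile had a median of 60.2 in MEFs (from 0.0177 to 99.9), 44.0 at day 5 (from 0.0828 to 99.9) and 45.6 at day 10 (from 0.0312 to 99.3). In MEFs, MEF-only regions had a median of 37.5 and regions open in all 4 lists one of 81.6, so the kept regions lay between these classes. The fold enrichment given by the authors had a median of 3.47 in MEFs, 3.59 at day 5 and 3.31 at day 10. Median peak length was 827 bp in MEFs, 578 bp at day 5 and 652 bp at day 10, and the MEF peak was longer than the day 10 peak in 2475 regions (65.8%). These values helped to choose the members and are given as a description.

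**Figure D1:**
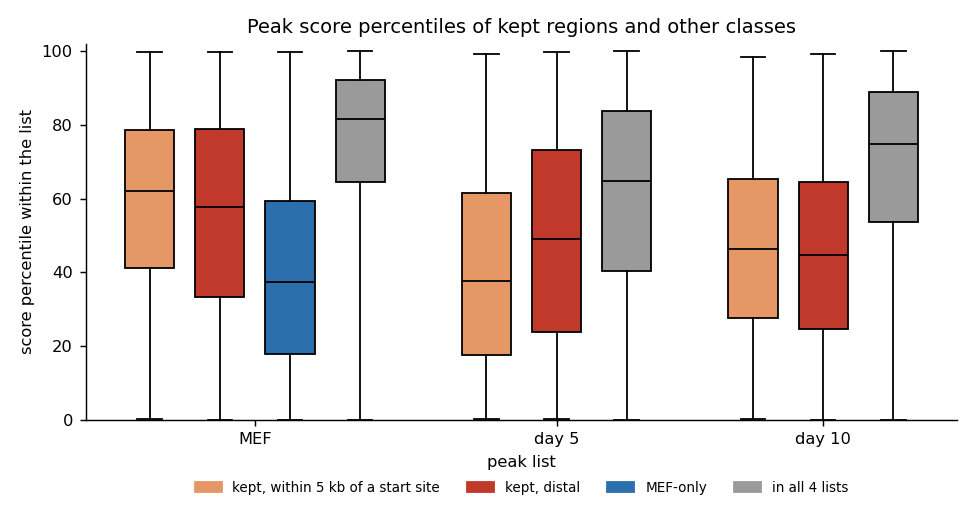
Score percentile (0 to 100, vertical axis) of the best peak of each region in the MEF, day 5 and day 10 lists, for kept regions within 5 kb of a start site, distal kept regions, MEF-only regions and regions in all 4 lists. Boxes span the quartiles with a line at the median and whiskers reach the lowest and highest value. Kept regions lie between MEF-only regions and those in all 4 lists in MEFs, and at day 5 the kept regions near start sites (median 37.7) lie below the distal ones (49.0).

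Strength was only loosely shared between MEFs and the reprogramming cultures. Across the 3764 regions, the Spearman correlation of score percentiles was 0.115 between MEFs and day 5, 0.210 between MEFs and day 10 and 0.534 between day 5 and day 10. The points of such a correlation share their base composition and their libraries, so it is a description. Percentiles lay above the list's median in all 3 lists in 766 regions (20.3%) and below it in all 3 in 694 (18.4%). The percentile was lower in the day 5 list than in the MEF list, and lower again in the day 10 list, in 855 regions (22.7%). The lists held 56514 (MEF), 36219 (day 5) and 35226 (day 10) peaks, so ranks in different lists do not measure a change in openness. Each of the 3 peaks was the sole peak of its list in 3730 regions, and all 3 shared at least 1 bp in 3517 (93.4%).

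Membership rests on thresholds. The lists held peaks down to a q-value of about 0.1, and the weakest of the 3 peaks had a −log10 q-value under 2 in 800 kept regions (21.3%), while all 3 reached 5 in 600 (15.9%). The nearest ESC peak lay over 400 and up to 800 bp away in 38 members, whose median MEF, day 5 and day 10 percentiles were 58.7, 44.0 and 41.8. On the other side of that threshold, 35 regions were left out because an ESC peak lay within 400 bp without overlapping another peak, and their medians were 46.2, 34.4 and 42. An ESC peak that belonged to another region lay within 5 kb of 919 kept regions (24.4%) and of 5456 MEF-only regions (18.2%).

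The 12 kept regions with the highest lowest percentile are described one by one, with their percentiles in MEFs, at day 5 and at day 10 in that order. The strongest, chr12:101851625-101852794 in an intron of Trip11, had percentiles of 98.6, 99.6 and 98.6 and fold enrichments of 5.01, 5.55 and 5.60. Trip11 encodes a Golgi tethering protein, and the closest ESC peak was 1177 bp away. At chr5:76539926-76541073, the region lay over an exon of Exoc1, which encodes a subunit of the exocyst that docks secretory vesicles, 871 bp from a start site. Its percentiles were 99.3, 98.3 and 98.5. The region chr17:75936356-75937455 lay between genes, far from any coding start site (384410 bp to Fam98a), with percentiles of 97.6, 99.9 and 99.3. These 3 regions stood in the top 3% of every list.

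Those of the 12 with an AP-1 site are described next. At chr2:45776526-45777738, between genes, percentiles were 95.7, 99.4 and 99.1, and its sequence with 2 AP-1 sites is printed above. The region chr1:182527642-182528861, near Capn2, which encodes a calcium-dependent protease, had percentiles of 94.5, 95.8 and 94.8. At chr2:6366477-6367382, in an intron of Usp6nl, a GTPase-activating protein of endocytic traffic, they were 97.5, 97.7 and 93.4. The intergenic region chr12:95491218-95492427, whose nearest coding gene was Flrt2 at 199799 bp, had 92.2, 99.9 and 98.1. The AP-1 site thus stood in 4 of the 12, beside 19.6% of all kept regions and 11.7% of all regions. The 12 were chosen for high percentiles, and the AP-1 share of distal kept regions rose with the MEF percentile. That share was 15.0% in the 742 regions with the lowest MEF percentiles and 34.2% in the 743 with the highest.

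Start sites were inside 3 of the 12 regions, beside 21.1% of all kept regions. At chr6:55203005-55204158, over the start site of Mindy4, a deubiquitinase gene, percentiles were 98.7, 97.8 and 94.7. At chr4:147867508-147869156, over a start site of Miip, a gene linked to cell migration, they were 94.4, 94.3 and 94.6. The region chr6:136518550-136519487, over a start site of Atf7ip, which encodes a partner of the histone methyltransferase SETDB1, had 95.1, 96.1 and 94.2. The Mindy4 and Miip regions held a KLF match and the Atf7ip region did not. The remaining 2 of the 12 were chr11:54491792-54492821 in an intron of Fnip1, a folliculin partner gene, with 95, 99.3 and 98.8, and the intergenic chr2:26147170-26148271 nearest to Nacc2, with 93, 96.2 and 94.8.

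The kept regions lay closer to start sites than the MEF-only regions. Within 5 kb of an annotated start site were 1537 kept regions (40.8%, Wilson interval 39.3% to 42.4%) and 7496 MEF-only regions (25%, 24.5% to 25.5%). The difference was 15.9 percentage points (Newcombe interval 14.2 to 17.5), and it had this direction on 20 of 20 chromosomes with at least 20 regions of each class. A start site lay inside 795 kept regions (21.1%) and 1044 MEF-only regions (3.48%). The share within 5 kb was 27.2% in MEF and day 5 regions, 41.8% in MEF and day 10 regions and 85.8% in regions open in all 4 lists. Among kept regions over 5 kb away, 1862 lay within 50 kb of a start site and 365 beyond.

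The position of the kept regions moved with the strength of their MEF peak. Among MEF peaks in the band up to percentile 20, 30.0% of 440 kept regions were within 5 kb of a start site and 26.3% of 8398 MEF-only regions, a difference of 3.70 points whose interval (-0.507 to 8.23) included 0. In the band from percentile 60 to 80 the shares were 47.9% and 23.2%, a difference of 24.7 points (21.4 to 28.0). In the highest band the difference was 17.0 points (13.3 to 20.7).

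Within 5 kb of a start site, the middle of the MEF peak was in an exon in 388 kept regions (25.2%), in an intron in 785 (51.1%) and between genes in 364 (23.7%). Among distal kept regions, 1154 were intronic (51.8%) and 1017 intergenic (45.7%). Kept regions near start sites were also GC-richer, with a mean GC content of 52.8% ± 11 (SD over 1537 windows of 200 bp) against 46.7% ± 8.05 for 7496 MEF-only windows, a difference of 6.04 points (5.46 to 6.62). This difference was 6.04 points (5.05 to 7.02) where a start site lay inside and 2.17 points (1.54 to 2.81) where none did. For distal windows the means were 45.8% ± 7.65 (2227 windows) and 44.2% ± 7.0 (22502 windows), a difference of 1.67 points (1.34 to 2.00). A window was called CpG-rich with at least 50% GC and at least 0.6 of the CpGs its base composition gives. Of kept regions with a start site inside, 35.8% were CpG-rich, compared with 12.3% of such MEF-only regions, a difference of 23.6 points (19.7 to 27.5). All-four regions with a start site inside had a mean GC content of 64.5%, above the 57% of the kept ones.

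Short sequences bound by known factors were counted in the 200 bp around the middle of the MEF peak, and in 200 bp windows that began 1 kb outside each region. Besides AP-1 and KLF, the searched motifs included SOX (CCATTGT or CCTTTGT), RUNX (TGTGGTT), the octamer bound by OCT4 (ATGCAAAT), TEAD (ACATTCCA and ACATTCCT, or GCATTCCA and GCATTCCT), CRE (TGACGTCA), ETS (CCGGAAGT), the E-box (CACGTG) and the longer CTCF, CArG box and NFI motifs, on both strands. KLF matches may overlap GC-rich stretches of any origin, and no motif was taken for a bound site. In all, 24 comparisons of kept with MEF-only regions were made, 12 motifs near start sites and the same 12 far from them, with intervals not adjusted for their number. The interval of the difference excluded 0 in 7 comparisons near start sites and in 5 distal ones.

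The KLF sequence was more frequent in kept than in MEF-only regions, near start sites and far from them. Among distal regions it was present in 222 of 2227 kept windows (9.97%, 8.79% to 11.3%) and in 4.92% of MEF-only windows, a difference of 5.05 points (3.84 to 6.39) seen on 18 of 20 chromosomes. Near start sites it was present in 284 of 1537 (18.5%) and in 7.58%, a difference of 10.9 points (8.94 to 13) seen on 20 of 20 chromosomes. A start site lay inside 795 of the 1537 near kept regions and 1044 of the 7496 near MEF-only regions. The KLF difference was 12.4 points (8.96 to 15.9) where a start site lay inside and 6.41 points (4.05 to 9.12) where none did. Of all 64529 distal and 37172 near regions of the 4 lists, 8.09% and 16.2% held the KLF sequence. Regions open in all 4 lists held it more often than kept ones, in 14.8% (distal) and 25.1% (near). The kept share was lower by a difference of -4.86 points (-6.86 to -2.87) and -6.61 points (-8.63 to -4.455). The windows outside the kept regions held it in 5.23% (distal) and 7.61% (near). GC content moved with this result. When MEF-only regions were weighted to the spread of GC content of the kept ones, the difference was 3.74 points (2.44 to 5.03) among distal regions and 5.45 points (3.10 to 7.80) near start sites. Both weighted intervals still excluded 0, and this weighting was added after the data had been seen.

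**Figure D2:**
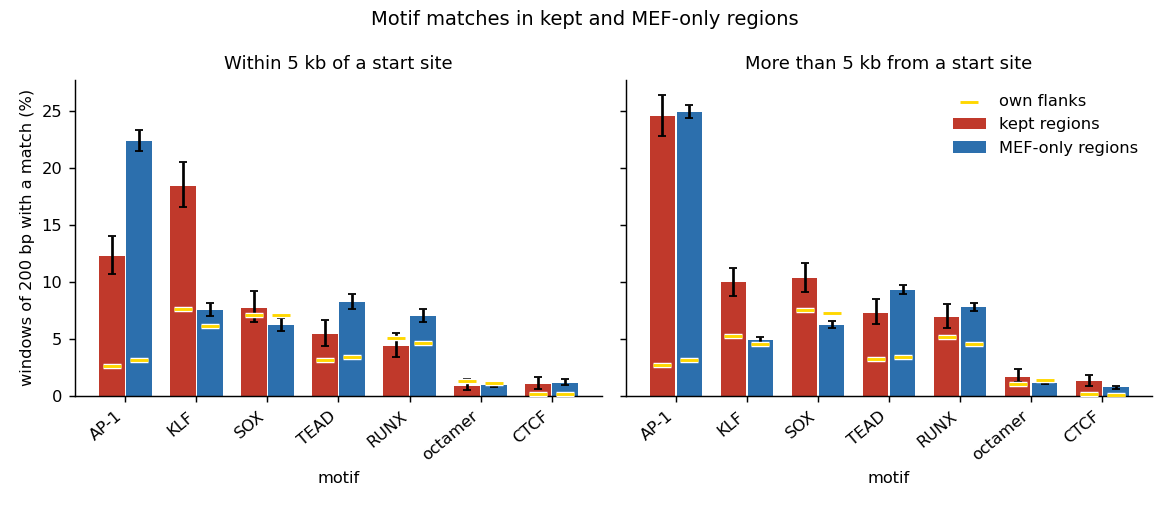
Percentage of 200 bp windows with a match to each of 7 motifs in kept regions and MEF-only regions, within 5 kb of a start site (left) and farther away (right). Error bars are 95% Wilson intervals and yellow dashes mark the share in the windows outside the regions. KLF is higher in kept regions in both panels, while AP-1 is lower in kept regions near start sites (12.3% against 22.4%) and level far from them (24.6% against 25%).

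The AP-1 sequence stood in 737 kept regions (19.6%) and 11.7% of all regions, and its difference from MEF-only regions depended on position. Near start sites, 189 of 1537 kept windows held it (12.3%, 10.7% to 14%), compared with 22.4% of MEF-only windows, a difference of -10.1 points (-11.9 to -8.15), lower on 19 of 20 chromosomes. This difference was -10.1 points (-12.9 to -7.20) where a start site lay inside and -5.00 points (-7.82 to -1.88) where none did. Among distal regions, 548 of 2227 kept windows held the AP-1 sequence (24.6%, 22.9% to 26.4%), compared with 25% of MEF-only windows. Of all distal regions 13.8% held it, and of all near ones 8.10%. The distal difference was -0.346 points with an interval from -2.18 to 1.57, which spans 0. The windows outside the distal kept regions held the AP-1 sequence in 2.76%.

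**Figure D3:**
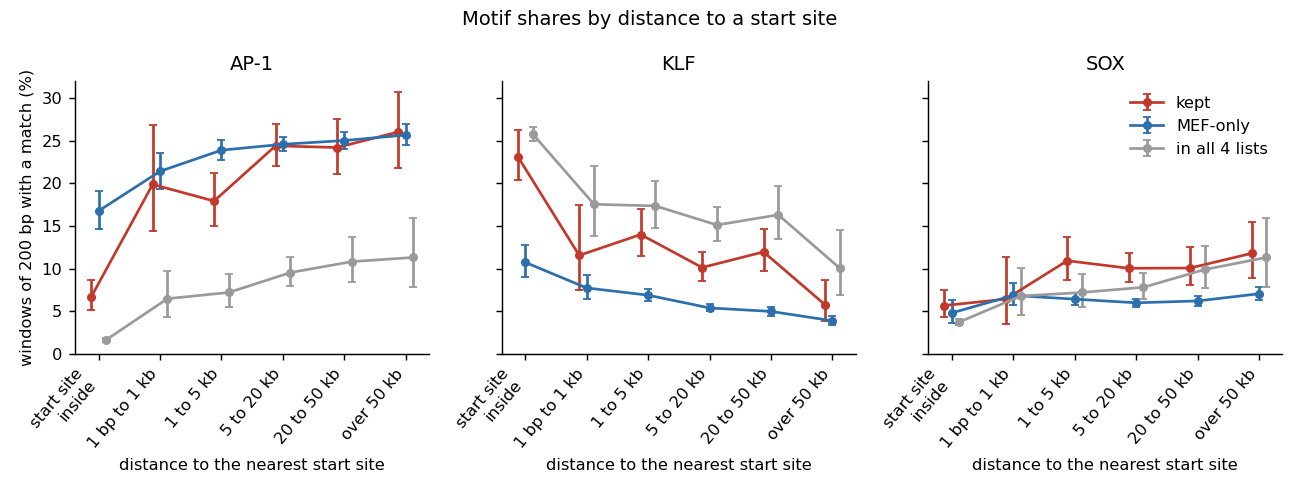
Percentage of 200 bp windows with an AP-1, KLF or SOX match (vertical axis) in 6 bins of distance to the nearest start site, for kept regions, MEF-only regions and regions in all 4 lists, with 95% Wilson intervals. The AP-1 share of kept regions goes from 6.67% with a start site inside to 26.0% beyond 50 kb. It lies below that of MEF-only regions with a start site inside (16.8%) and from 1 to 5 kb (17.9% against 23.9%). Intervals of the AP-1 shares overlap from 1 bp to 1 kb and from 5 kb outward. The KLF share of kept regions falls from 23.1% to 5.75%.

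The distal AP-1 share moved with the strength of the MEF peak. AP-1 sites were more common in stronger MEF peaks, and kept regions had stronger MEF peaks than MEF-only regions. Among distal kept regions, the AP-1 share was 15.0% in the 742 regions with the lowest MEF percentiles, 24.7% in the middle 742 and 34.2% in the 743 highest. By day 5 percentile the shares were 20.5%, 23.0% and 30.3%, and by day 10 percentile 21.7%, 24.9% and 27.2%. For KLF the 3 shares by MEF percentile were 9.03%, 10.2% and 10.6%, with overlapping intervals.

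In bands of equal MEF percentile, the AP-1 share of distal kept regions was below that of MEF-only regions from percentile 20 to 60. Up to percentile 20 it was 14.9% against 18.2%, and the interval of the difference included 0 (-6.95 to 1.24). From percentile 20 to 40 it was 15.9% against 23.2%, a difference of -7.23 points (-10.7 to -3.12), and from 40 to 60 it was 20.5% against 27.7%, a difference of -7.18 points (-10.8 to -3.12). From 60 to 80 it was 30.4% against 30.5%, and above 80 it was 34.5% against 34.4%, with intervals that included 0. Weighted over 10 such bands, MEF-only regions had an AP-1 share of 28.0%, and the difference was -3.36 points (-5.30 to -1.42). The same weighting gave a difference of -13.2 points near start sites (-15.3 to -11.1) and left the distal KLF difference at 5.30 points (4.01 to 6.59).

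**Figure D4:**
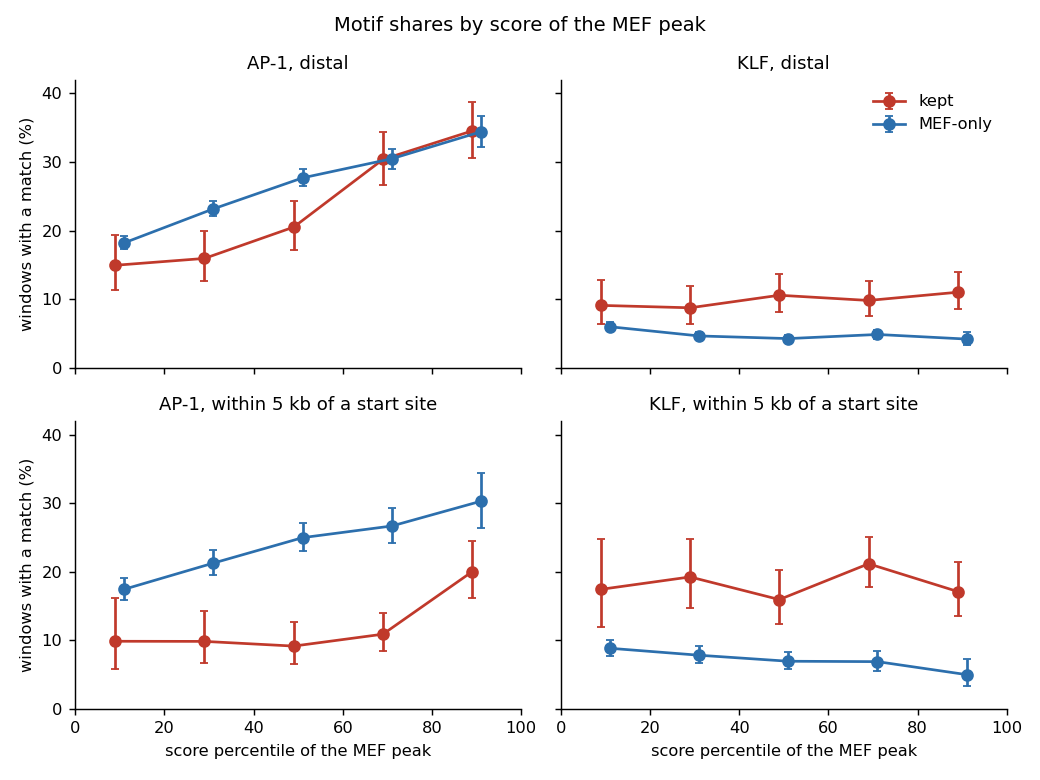
Percentage of windows with an AP-1 or KLF match in 5 bands of the score percentile of the MEF peak, for distal regions (top) and regions within 5 kb of a start site (bottom), with 95% Wilson intervals. Distal AP-1 shares of kept and MEF-only regions lie within 1 point of each other above percentile 60 and differ most from percentile 20 to 60, while KLF shares of kept regions lie above those of MEF-only regions in all 5 bands.

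The SOX sequence was also more frequent in kept regions. Among distal regions 230 kept windows held it (10.3%, 9.13% to 11.7%), compared with 6.28% of MEF-only windows, a difference of 4.05 points (2.81 to 5.42) seen on 16 of 20 chromosomes. The windows outside these kept regions held it in 7.52% and those outside the MEF-only regions in 7.31%. Near start sites the SOX shares were 7.74% and 6.27%, a difference of 1.47 points (0.113 to 3.01). This difference was 0.871 points (-1.16 to 3.03) where a start site lay inside and 3.46 points (1.41 to 5.90) where none did. The kept shares lay below those of all distal (11.3%) and all near regions (7.88%). With the weighting for MEF score and GC content together the distal SOX difference was 4.42 points (3.10 to 5.75). The octamer was rare, in 38 distal kept windows (1.71%) and 1.18% of MEF-only windows, a difference of 0.524 points (0.0398 to 1.16) that no longer excluded 0 when MEF-only regions were weighted for MEF score (-0.0400 to 1.09). Of all distal regions 2.53% held the octamer.

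TEAD and RUNX sequences, by contrast, had lower shares in kept regions, though not every interval excluded 0. The TEAD sequence was in 163 distal kept windows (7.32%) and 9.34% of MEF-only windows, a difference of -2.02 points (-3.10 to -0.802), and in 7.89% of all distal regions. Near start sites the TEAD difference was -2.81 points (-4.02 to -1.42). It was -2.18 points (-3.97 to -0.348) where a start site lay inside, and -0.567 points with an interval that included 0 (-2.47 to 1.73) where none did. The RUNX sequence was in 155 distal kept windows (6.96%), 7.82% of MEF-only windows and 5.94% of all distal regions, and the difference of -0.857 points had an interval that included 0 (-1.91 to 0.327). Near start sites the RUNX difference was -2.70 points (-3.79 to -1.43). Both intervals included 0 when near regions were split by a start site inside (-1.23 points, -3.00 to 0.611) or none inside (-1.945 points, -3.52 to 0.0381). CTCF, which anchors chromatin loops, matched 29 distal kept windows (1.30%), 0.756% of MEF-only windows and 1.17% of all distal regions, a difference of 0.547 points (0.134 to 1.12).

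The other motifs were rare. Near start sites the ETS sequence was in 13 kept windows (0.846%) and 0.173% of MEF-only windows, a difference of 0.672 points (0.301 to 1.27), and it was in 1.21% of all near regions, above the kept share. The CRE sequence there was in 12 kept windows (0.781%) and 0.307% of MEF-only windows, a difference of 0.474 points (0.107 to 1.06), and in 0.554% of all near regions. Where no start site lay inside, the ETS and CRE intervals included 0 (-0.120 to 0.826 and -0.169 to 0.925). Where one did, the ETS interval excluded 0 (0.273 to 2.19) and the CRE interval did not (-0.303 to 1.61). E-box, CArG box (bound by serum response factor) and NFI matches had intervals that included 0 near start sites and far from them. Their shares of all near regions were 3.75%, 0.837% and 0.0323%, and of all distal regions 2.50%, 1.13% and 0.0434%. Most kept windows carried none of the 5 commoner sequences: no AP-1, KLF, SOX, TEAD or RUNX match was present in 1202 distal (54.0%) and 929 near (60.4%) windows. AP-1 and KLF matches were together in 67 distal windows (3.01%), AP-1 alone of the pair in 481 and KLF alone in 155.

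Compared with regions open in MEFs and on a single day, the kept regions did not stand at one end. Among distal regions, the KLF share was higher in MEF and day 10 regions (12.9%), a difference of -2.88 points (-5.39 to -0.546) for the kept ones, and so was GC content (48.6%, a difference of -2.77 points, -3.35 to -2.20). The kept share was higher for AP-1 (14.4% in MEF and day 10 regions, a difference of 10.2 points, 7.27 to 12.9) and for SOX (7.17%, 3.16 points, 1.03 to 5.12). CTCF matches were more frequent in MEF and day 10 regions, with 3.98% and a difference of -2.68 points (-4.13 to -1.50). Near start sites, the KLF (15.3%), SOX (6.38%) and AP-1 (12.5%) shares of MEF and day 10 regions gave intervals that included 0, and their GC content was again higher (a difference of -1.21 points, -2.11 to -0.315).

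Against MEF and day 5 regions, the distal AP-1 (26.4%), KLF (8.30%) and SOX (9.39%) shares gave intervals that included 0. The distal RUNX difference was -2.34 points (-4.45 to -0.394), with 9.30% in MEF and day 5 regions, and distal GC content was higher in the kept ones by 2.00 points (1.46 to 2.54). Near start sites the KLF share was 9.27% in MEF and day 5 regions, a difference of 9.21 points (5.51 to 12.4), and the AP-1 difference was -7.70 points (-12.1 to -3.72). This AP-1 difference was -1.33 points (-8.50 to 3.02) where a start site lay inside and -5.54 points (-11.2 to -0.242) where none did. The SOX interval near start sites included 0 (-2.76 to 3.01).

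Distal kept regions were somewhat more often close to each other than MEF-only regions were to them. Another kept region lay within 10 kb of 136 of 2227 distal kept regions (6.11%) and of 876 of 22502 distal MEF-only regions (3.89%), a difference of 2.21 points (1.26 to 3.31). A region open in all 4 lists lay within 10 kb of 11.4% and 7.63%, a difference of 3.78 points (2.47 to 5.20). Of the regions in all 4 lists, 78.4% had a start site inside. From 5 to 20 kb from a start site lay 1176 of the 2227 kept and 10620 of the 22502 MEF-only regions. The neighbor comparisons were not split by that distance. For MEF-only neighbors the shares were 31.0% and 30.8%, and the interval included 0 (-1.78 to 2.24). By chromosome, kept regions made up from 7.87% (chromosome 12) to 12.2% (chromosome 7) of the MEF regions without an ESC peak. Repeats covered at least 50% of 27 kept regions (0.717%) and of 812 MEF-only regions (2.71%).

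Genes near the kept regions were counted within 50 kb of a start site. Of 21911 protein-coding genes, 22.8% had at least 1 kept region there, 3899 had exactly 1 and 843 had 2. Among the genes with the most were 2010111I01Rik, Col4a2, Sh3pxd2a and Zfp217, with 6 each, and Acvr1 with 5. A gene whose start sites are spread over a long body was searched over more sequence. Neither these counts nor the gene list shares below were adjusted for gene length or number of start sites. Col4a2 (chr8:11312805-11449287) encodes a basement membrane collagen, and 13 MEF-only regions and 1 region open in all 4 lists lay near it as well. Sh3pxd2a (chr19:47260174-47464401), which encodes the podosome scaffold TKS5, had 6 MEF-only regions and 4 in all 4 lists, and Zfp217 (chr2:170108643-170148103), a zinc finger protein gene, had 2 and 0. Acvr1 (chr2:58388644-58567157) encodes a bone morphogenetic protein receptor and had 3 and 2. Near 2010111I01Rik (chr13:62964893-63326096), which encodes aminopeptidase O, 14 MEF-only regions and 3 in all 4 lists were counted.

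The gene lists differed widely around that background of 22.8%. Among matrix genes, 17 of 31 had a kept region within 50 kb (54.8%), led by Col1a1, the main chain of type I collagen, with 4, and Col6a1 and the gelatinase gene Mmp2 with 2 each. Among genes of the actin cytoskeleton, 17 of 30 had one (56.7%), led by Actn4 with 3 and by the actin genes Actb and Actg1 with 2 each. In the TGF-beta pathway, which drives matrix production, it was 13 of 22 (59.1%), led by Tgfbi with 4, with 2 near Ltbp3, which encodes a latent TGF-beta binding protein. In the TEAD and YAP pathway it was 10 of 18 (55.6%), led by the receptor kinase gene Axl and the TEAD cofactor gene Vgll4 with 3 each and the YAP kinase gene Lats2 with 2. These lists stood above the background, and since the members were chosen with results of these data known, no test was made.

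Fibroblast transcription factors, AP-1 factors, surface markers, senescence genes and interferon genes gave shares between the background and those of the previous lists. Some lists of other cell types, given below, lay in the same range. Among fibroblast transcription factors, 12 of 30 had a kept region (40%), led by Runx1 with 4, then Foxp1 and Prrx1 with 2 each. Foxp1 also had 21 MEF-only regions. Among AP-1 and related factors it was 7 of 16 (43.8%), led by Mafk with 3, then Fosb and Maff with 2 each. Fibroblast receptor kinases and surface markers had 10 of 20 (50.0%), led by Cd44 with 3 and Met, which encodes the hepatocyte growth factor receptor, with 2, then the collagen receptor gene Ddr2 with 1. Senescence and p53 genes had 9 of 18 (50.0%), each with 1, among them Ccnd2 and the cell cycle inhibitor genes Cdkn1a and Cdkn2a. Interferon and viral sensing genes had 7 of 20 (35%), led by Tlr3 and Trim25 with 2 each, then Bst2 with 1.

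The remaining lists, those of KLF and SP factors and of other cell types, ranged from 10.0% to 40%, on both sides of the background. Kept regions were near 3 of 16 KLF and SP genes (18.8%; Klf6 with 2, Klf9 and Klf13 with 1), 6 of 22 epithelial genes (27.3%, among them Cldn7, Krt7 and Krt8) and 3 of 23 pluripotency genes (13%; Pou5f1 with 2, Dppa3 and Tdgf1 with 1). Endothelial markers had 1 of 10 (10.0%, Erg), macrophage and leukocyte markers 4 of 10 (40%, among them Cd68, Csf1r and Fcgr1), neural markers 3 of 10 (30.0%, among them Map2 and Nes) and muscle markers 3 of 10 (30.0%; Myog with 2, Actc1 and Des with 1). All 10 endothelial markers had a MEF-only region within 50 kb, compared with 64.9% of coding genes. With windows of 20 kb and 100 kb the background was 12.4% and 35.1%, and the matrix genes with a kept region were 11 and 20 of 31. The lists below the background depended on the window. Within 100 kb, 5 of 10 endothelial markers and 8 of 16 KLF and SP genes had a kept region, both above 35.1%, and 15 of the 16 lists were above it, all but the pluripotency genes (8 of 23). Within 20 kb, 13 lists were above 12.4%.

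**Figure D5:**
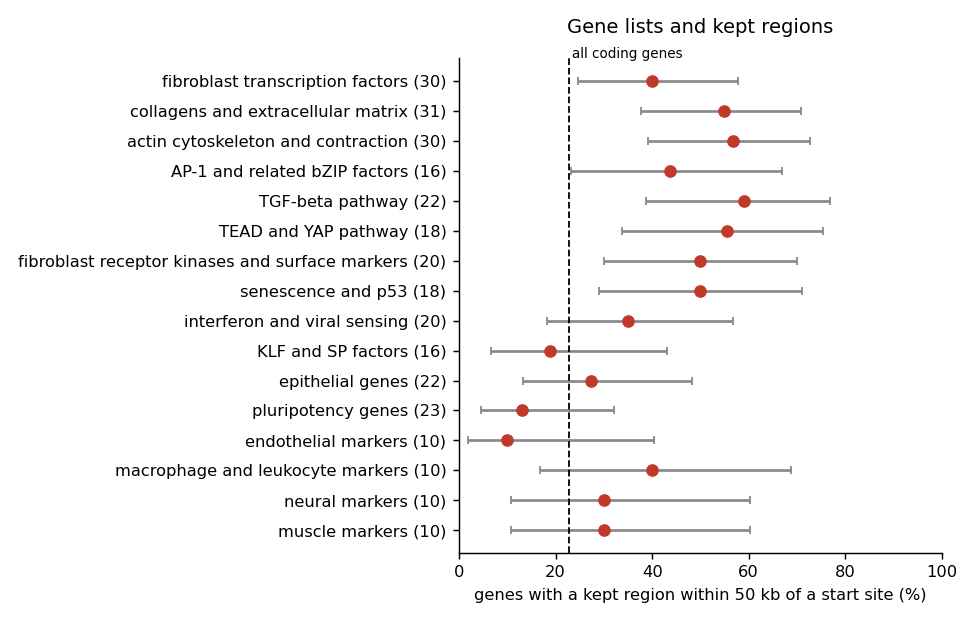
Percentage of genes in each of 16 lists (number of genes in brackets) with a kept region within 50 kb of a start site. Points are shares with 95% Wilson intervals and the dashed line is the 22.8% of all protein-coding genes. TGF-beta, actin, TEAD and YAP and matrix genes lie highest, and pluripotency genes and endothelial markers lie lowest.

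Of the regions that were either kept or MEF-only, the kept share was 11.1% over the whole genome and 13.1% within 50 kb of any coding start site. It was 25.4% near TEAD and YAP genes (18 kept and 53 MEF-only, 16.7% to 36.6%), 24.4% near AP-1 genes (11 and 34, 14.2% to 38.7%) and 14.8% near matrix genes (24 and 138, 10.2% to 21.1%). Lists unrelated to fibroblasts gave shares on both sides of those of the fibroblast lists. It was 23.7% near interferon genes (9 and 29), 21.1% near both pluripotency and muscle genes (4 and 15 each), 18.2% near macrophage and leukocyte markers (4 and 18), 13.95% near fibroblast transcription factors (18 and 111), 12.04% near receptor kinases and surface markers (13 and 95) and 2.63% near endothelial markers (1 and 37). The other 6 lists lay between 15.4% and 16.9%. The interval included 13.1% for every list other than the TEAD and YAP and the AP-1 genes, with no adjustment for the 16 lists. The high share of matrix genes with a kept region therefore went with many MEF-only regions around the same genes.

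A start site lay inside a kept region for 689 coding genes (3.14% of 21911), and for 503 of them (2.30%) no start site of the gene lay in a region with an ESC peak. In the matrix list 7 of 31 genes had such a promoter: Col3a1, Col6a1, Col6a2, Dcn, Mmp2, Mmp14 and Timp3. At Col6a2 (chr10:76622792-76623641) the percentiles in MEFs, at day 5 and at day 10 were 83.5, 61.6 and 44.7. At Mmp2 (chr8:92827102-92828570) they were 76.8, 83.6 and 49.8. At Col3a1 (chr1:45311169-45314170), a chain of fibrillar type III collagen, they were 44.6, 8.62 and 18.3, and the day 5 peak covered 57 bp compared with 3002 bp in MEFs. At Dcn (chr10:97478457-97480465), which encodes the proteoglycan decorin, they were 37.6, 66.3 and 18. These ranks belong to the peaks that chose the members and are a description.

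The promoter peaks of contractile genes (2 of 30 in the list) and surface genes (2 of 20) were compared in the same way. At Acta2 (chr19:34254437-34256044), which encodes smooth muscle actin, the percentiles were 90.2, 94.5 and 88.8. At Cd44 (chr2:102900809-102901869), the hyaluronan receptor, they were 89.7, 95.3 and 86.3. At Tagln (chr9:45935392-45937149), which encodes the actin-binding protein transgelin, they were 65.8, 18.1 and 22.1. Pdgfrb (chr18:61044658-61046976), a fibroblast receptor, had 77.3, 0.977 and 31.7. The ranks of Acta2 and Cd44 lay well above the median of each list, and those of Tagln and Pdgfrb lay above it in the MEF list and below it in the day 5 and day 10 lists. As the lists differ in length and depth is unknown, this does not show whether these promoters became less open.

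Among the other lists, 4 of 22 TGF-beta genes (Ltbp3, Tgfb1i1, Tgfb3 and Tgfbi) had a start site in a kept region, beside 3.14% of all coding genes. So did 3 of 30 fibroblast factors (Hic1, Osr1 and Runx2) and 1 of 16 AP-1 related genes (Mafk). In the TEAD and YAP pathway it was 2 of 18 (Axl and Vgll4), and among interferon genes 3 of 20 (Irf7, Tlr3 and Trim25). Klf13 (1 of 16), Map2 (1 of 10), Tdgf1 (1 of 23) and the senescence genes Ccnd2, Cdkn2a and Il6 (3 of 18) completed the lists. For Ltbp3, Runx2, Mafk, Vgll4, Klf13, Map2 and Cdkn2a, another start site of the gene lay in a region with an ESC peak. At Il6 (chr5:30012598-30013578), a senescence-associated cytokine, the percentiles were 96.8, 55.3 and 69.3. At Cdkn2a (chr4:89281994-89282674), which encodes inhibitors of cell division that limit reprogramming, they were 14.5, 30.4 and 48.4, the lowest of them in MEFs. At Runx2 (chr17:44814266-44815645), an osteoblast factor, they were 73.1, 40.8 and 23.9. The epithelial list (22 genes) and the endothelial, macrophage and muscle lists (10 genes each) held no gene with a start site in a kept region. Lists of this length cannot set a count of 0 apart from the 3.14% of all coding genes, and epithelial genes outside the list, such as Krt80 and Itgb4 (named after the values had been seen), did have a start site in a kept region.

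A kept region 4381 bp from a start site of Pou5f1 (chr17:35500561-35501637) had percentiles of 15.3, 88.4 and 63.2 and fold enrichments of 1.69, 2.57 and 2.10. The nearest ESC peak was 933 bp away. The Oct4-GFP transgene of the OG2 strain carries Pou5f1 sequence, and its part in this signal was not tested. The region was chosen for mention after its values had been seen.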

How the data were processed

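ATAC-seq was performed on 2 libraries each of MEFs, OSKM day 5, OSKM day 10 and ESCs, and samples were grouped by their titles. Per the labels and the study's methods, reads were mapped to mm10 with bowtie2 (version 2.2.0 in the submitters' processing notes), and the peak caller was not given in the sources used here. The labels place ESCs on feeder cells in serum medium, the methods on gelatin in LIF medium with GSK3 and MEK inhibitors, so the culture of these ESCs is uncertain. The authors deposited 1 peak list per group, with a score, a fold enrichment (ratio) and −log10 p and q-values for each peak. Peak names come from replicate 1, so the intervals look like its overlap with replicate 2, which no source states, and the score and fold then describe a longer replicate 1 peak. Depth is unknown and a longer list may reflect deeper libraries.

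Peaks within 400 bp were merged. Start sites and exons were those of GENCODE release M21 (21911 coding genes, and all 306 list genes were matched). Motifs were searched in 200 bp windows at the midpoint of the widest MEF peak, or of the widest peak where MEFs had none. Shares were compared by Newcombe intervals (statsmodels 0.14.6) and GC means by normal intervals, and the scripts were tested on simulated data. The members and gene lists were chosen with earlier results of these data known. Named regions were the 12 with the highest lowest percentile. Named genes were the 6 with the most kept regions, the 3 with the most in each list (ties by symbol), and all list genes with a start site in a kept region, the last chosen after the values were seen. Some genes that these rules name are not reported here. No columns of other series were present (0). Alternatives covered the peaks used, merging distance, shared bases, chromosomes, repeats, start-site distance and window.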

Additional observations from a re-analysis of the deposited data

How the results depend on the processing

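Of 162 alternative values for 15 results, 142 kept the direction and the side of the threshold or stayed within the limits set for a count. Using the higher-scoring 50% of each list gave 1897 kept regions, 66.5% of them near a start site (36.6 points above MEF-only regions in place of 15.9, with a GC difference near start sites of 9.77 in place of 6.04), an AP-1 difference in distal regions of 0.516 points in place of -0.346, and intervals that included 0 for the distal differences of TEAD (-2.13), octamer (0.402) and CTCF (0.252). Cutting all lists to the length of the shortest gave 54.0% near a start site (29.5 points above MEF-only regions, GC difference 10.6), near differences of -16.6 (AP-1) and 13.6 (KLF) points, and distal differences of -3.13 (AP-1) and -1.76 (RUNX) points that excluded 0. A distance of 1 kb put 25.3% of kept regions at a start site. The distal AP-1 difference was 0.163 with merging at 0 bp and 0.253 where the 3 peaks shared bases, both with intervals that included 0. With the window at the middle of the whole region it was -3.76 and that of RUNX -1.22, and both excluded 0. This setting moved the windows of kept regions off the MEF peak midpoint (median region 1023 bp, MEF peak 827 bp). It hardly moved those of MEF-only regions (median 570 bp for both), so the 2 classes were not treated alike. Windows of 400 bp gave differences of 18.4 (KLF near), 9.17 (KLF distal), 6.97 (SOX distal), -3.08 (TEAD distal), 1.30 (octamer distal) and 1.28 points (CTCF distal). Merging at 1000 bp gave an octamer difference of 0.420, no longer past 0.

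Weightings added after seeing the data gave, for MEF score, -3.36 (AP-1), -1.35 (RUNX) and 0.525 (octamer, interval including 0), for GC content 0.376 (CTCF, including 0), and for both -3.36 (AP-1). The cause of these changes was not tested, other than that the higher-scoring 50% leaves fewer regions. The direction and call of the KLF differences, of the distal SOX difference, of GC content and of the near AP-1 difference held in each alternative run for them. The near SOX difference was run through the weightings only.

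Of the 16 gene lists, 13 lay above the share of all coding genes at 50 kb and at 20 kb, and 15 at 100 kb. No paired analysis was possible because each group had 1 list for both replicates, and leaving out a replicate could not be done for the same reason. Unknown depth limits every statement that a peak was absent.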
